A study of Mus musculus with 9 samples.

Results

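The transcripts of 5 genes were followed through the livers of mice overdosed with acetaminophen (APAP): the adult alpha globin genes Hba-a1 and Hba-a2, the adult beta globin genes Hbb-bs and Hbb-bt, and Alas2, the erythroid form of the first enzyme of heme synthesis. They were taken by name from a table of 54532 genes, as a possible sign of blood in the tissue. Their levels in these same libraries had been seen when they were chosen, so the levels are given as a description and without a test. The table held FPKM values (fragments counted on a gene, scaled by its length and by the depth of the library) from RNA-seq of 9 livers of C57BL/6 mice, 3 in each of 3 groups. The NC group held control mice. The APAP group had received 500 mg/kg APAP and was studied at 6 h. The AMSC group had received the same dose of APAP together with AMSCs, which are mesenchymal stem cells grown from the adipose tissue of C57BL/6 mice and given through the tail vein. The mice were male and 5 to 7 weeks old, and those given APAP had been fasted overnight. The libraries are 3 biological replicates per group by the study's methods, and perfusion of the livers and pooling of animals were not given in the sources used here.

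Adult hemoglobin is a tetramer of alpha and beta chains with a heme in each chain. Its transcripts are made in erythroid precursors of the bone marrow and, in lower amounts, still carried by reticulocytes and young red cells in the blood. Heme synthesis starts in the mitochondrion with 5-aminolevulinate synthase, which erythroid cells make from Alas2 and other cells, hepatocytes above all, from Alas1. Red cells that break open release hemoglobin, which haptoglobin (Hp) binds in plasma, and heme, which hemopexin (Hpx) binds and heme oxygenase 1 (Hmox1) degrades.

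On GRCm38, Hba-a1 (ENSMUSG00000069919) lies at chr11:32283511-32284465 and Hba-a2 (ENSMUSG00000069917) at chr11:32296489-32297298, both on the plus strand. Hbb-bs (ENSMUSG00000052305) lies at chr7:103826534-103828096 and Hbb-bt (ENSMUSG00000073940) at chr7:103812524-103813996, both on the minus strand, and Alas2 (ENSMUSG00000025270) at chrX:150547375-150570638 on the plus strand. In the GENCODE models each globin transcript had 3 exons and the Alas2 transcript 11. The 429 coding bases of Hba-a1 and Hba-a2 differed at 1 position, and so did the 444 coding bases of Hbb-bs and Hbb-bt, which makes each pair 99.77% identical. Coding positions 292 to 381 of the alpha pair and 328 to 417 of the beta pair are shown because they contain that difference (in capitals), C381T from Hba-a1 to Hba-a2 and C417T from Hbb-bs to Hbb-bt, counted from 1 at the first base of the start codon:
Hba-a1: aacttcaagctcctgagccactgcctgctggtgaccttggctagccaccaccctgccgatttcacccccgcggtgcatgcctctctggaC
Hba-a2: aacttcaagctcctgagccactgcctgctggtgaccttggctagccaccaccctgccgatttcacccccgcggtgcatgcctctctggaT
Hbb-bs: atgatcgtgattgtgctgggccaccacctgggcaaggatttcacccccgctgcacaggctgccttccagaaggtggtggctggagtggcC
Hbb-bt: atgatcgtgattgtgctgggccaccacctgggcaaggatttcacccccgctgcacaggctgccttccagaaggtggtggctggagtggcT
Of all stretches of 100 bases in the Hba-a1 transcript, 56.5% also occurred in Hba-a2, and 74.5% of those of Hba-a2 occurred in Hba-a1. For the beta pair the shares were 62.6% of Hbb-bs and 54.8% of Hbb-bt. Reads from these stretches cannot be assigned to one gene of a pair by sequence. How such reads were counted is not given in the sources used here, so the level of a single gene within a pair is uncertain. The sum of each pair is given after the single genes. The 3' exon of Alas2 is overlapped on the other strand by a transcript of Apex2 (all 311 bases of exon 11), a DNA repair gene that stood at 0.305 to 1.12 FPKM over the libraries. Whether the counting used strand is also not given.

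The 200 bases before the RefSeq start site were searched on both strands for GATA (the core of the site of GATA factors), for CACCC (that of Klf1 and related factors), for CCAAT (that of CCAAT-binding factors) and for TATAA (that of the TATA-binding protein). They are shown for one gene of each chain and for Alas2 because the levels of the globin genes moved together over the libraries and that of Alas2 did not follow them, with matches on either strand in capitals, 5' to 3' along the gene, from GRCm38.p6 (Hba-a2 chr11:32296292-32296491 plus, Hbb-bs chr7:103827929-103828128 minus, Alas2 chrX:150547217-150547416 plus):
Hba-a2: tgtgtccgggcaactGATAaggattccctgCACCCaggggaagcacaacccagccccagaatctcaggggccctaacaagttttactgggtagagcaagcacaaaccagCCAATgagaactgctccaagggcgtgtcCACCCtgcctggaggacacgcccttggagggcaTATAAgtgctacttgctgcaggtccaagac
Hbb-bs: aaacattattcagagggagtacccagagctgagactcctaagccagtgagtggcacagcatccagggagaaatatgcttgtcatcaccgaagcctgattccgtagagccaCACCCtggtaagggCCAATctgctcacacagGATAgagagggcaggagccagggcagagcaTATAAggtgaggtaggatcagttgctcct
Alas2: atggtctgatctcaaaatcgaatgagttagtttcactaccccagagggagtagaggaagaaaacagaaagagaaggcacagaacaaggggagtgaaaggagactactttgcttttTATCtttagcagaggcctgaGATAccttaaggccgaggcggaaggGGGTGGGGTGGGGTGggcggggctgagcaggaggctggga
Each of the 4 globin windows held all 4 sets of letters, and the windows of Hba-a1 and Hba-a2 were the same sequence shifted by 3 bases (297 of 297 bases identical over the longer promoter entries). The Alas2 window held GATA 2 times and CACCC 3 times, as a tandem repeat of GGGTG on the shown strand, and neither CCAAT nor TATAA. Among 32817 promoter windows of the same length, GATA occurred in 45.4%, CACCC in 45.5%, CCAAT in 29.3% and TATAA in 18.5%, and the first 3 occurred together in 5.29%. The matches describe the letters and say nothing about binding.

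The libraries held 13418921 to 16210930 reads on genes, recovered as whole numbers from FPKM and gene length. The 4 globin genes together had 1316 to 14203 reads per library and Alas2 had 656 to 1647, so counting error was small beside the spread between libraries. The scarcer genes of each pair rested on fewer reads, 63 to 904 for Hba-a2 and 58 to 618 for Hbb-bt. The library NC 3 has a title with another date than the other 8 libraries and with the number 1, and the globin differences are given with and without it. Liver identity was plain in every library, with albumin (Alb) at 27230 to 46612 FPKM.

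Hba-a1 had the higher FPKM of the alpha pair. It stood at 45.4, 44.2 and 77.1 FPKM in NC 1, 2 and 3, at 356, 111 and 525 FPKM in APAP 1, 2 and 3, and at 108, 60.9 and 88.3 FPKM in AMSC 2, 3 and 4. APAP 1 and APAP 3 were far above all others, whereas APAP 2 was just above the highest AMSC library. The mean was 55.6 ± 18.7 FPKM (SD, n = 3) in NC, 331 ± 208 in APAP and 85.9 ± 23.8 in AMSC, which is 5.95-fold higher in APAP than in NC and 0.260 times the APAP level in AMSC. On the log2(FPKM + 1) scale the differences were 2.34 ± 0.72 (SE) for APAP minus NC, -1.71 ± 0.71 for AMSC minus APAP and 0.63 ± 0.35 for AMSC minus NC. Without NC 3 the first and last became 2.59 and 0.89, and without APAP 2 the first became 2.99 and the second -2.36.

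Hba-a2 had the same order of group means at a lower level. Its values were 5.66, 8.58 and 10.5 FPKM in NC, 39.6, 19.8 and 101 FPKM in APAP, and 22.9, 13.1 and 11.3 FPKM in AMSC, in the same order of libraries. All APAP libraries and all AMSC libraries lay above the 3 NC libraries, and AMSC 2 lay above APAP 2. The group means were 8.26 ± 2.46, 53.4 ± 42.2 and 15.8 ± 6.26 FPKM (SD, n = 3). The log2 differences were 2.29 for APAP minus NC and 0.83 for AMSC minus NC, or 2.47 and 1.01 without NC 3, and -1.46 for AMSC minus APAP, or -1.999 without APAP 2.

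Hbb-bs had the highest FPKM of the 5 genes in most libraries. It stood at 44.6, 47.6 and 116 FPKM in NC, at 566, 125 and 673 FPKM in APAP, and at 138, 78.4 and 98.2 FPKM in AMSC. NC 3 exceeded 2 of the 3 AMSC libraries and nearly reached APAP 2, and AMSC 2 exceeded APAP 2. The means were 69.4 ± 40.5 FPKM in NC, 455 ± 291 in APAP and 105 ± 30.5 in AMSC (SD, n = 3), with log2 differences of 2.51 ± 0.89 (SE) for APAP minus NC, -1.82 ± 0.80 for AMSC minus APAP and 0.69 ± 0.50 for AMSC minus NC. Without NC 3 the first and last of these became 2.95 and 1.13, and without APAP 2 the first became 3.28 and the second -2.58.

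Hbb-bt had the lower FPKM of the beta pair. It stood at 5.71, 4.77 and 16.4 FPKM in NC, 60.9, 13.9 and 65.4 in APAP, and 19.6, 9.74 and 10.9 in AMSC. In FPKM it was the one globin gene whose APAP and NC libraries overlapped, since APAP 2 lay below NC 3. The beta sum did not overlap there, with 139 FPKM in APAP 2 and 133 in NC 3. Its means were 8.98 ± 6.49, 46.7 ± 28.5 and 13.4 ± 5.40 FPKM (SD, n = 3). The log2 differences were 2.17 for APAP minus NC and 0.65 for AMSC minus NC, or 2.66 and 1.15 without NC 3, and -1.51 for AMSC minus APAP, or -2.21 without APAP 2.

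**Figure D1:**
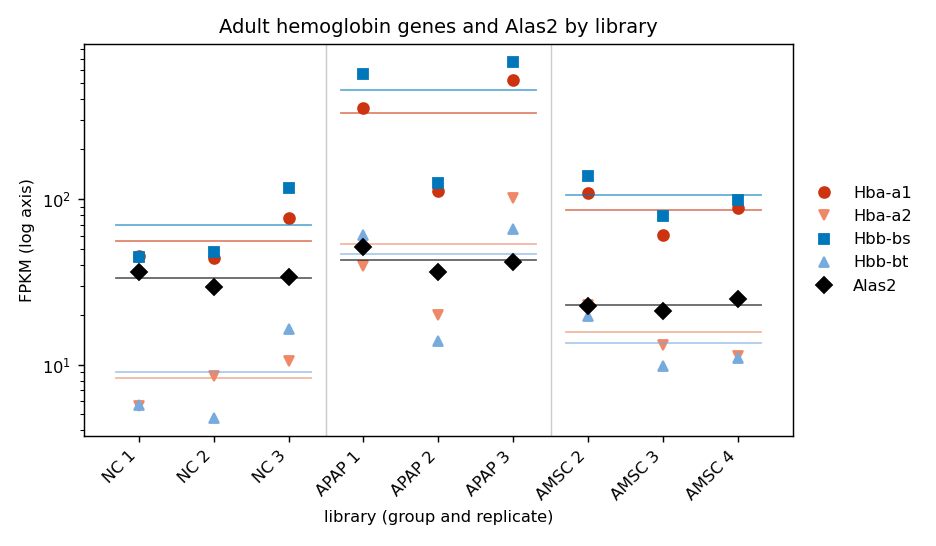
FPKM on a log axis of the 4 globin genes and Alas2 in each of the 9 libraries, where points are single libraries and horizontal lines are group means. The globin points of APAP 1 and APAP 3 stand far above those of every other library, while Alas2 lies between 21.0 and 51.1 FPKM throughout.

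The alpha sum stood at 51.1, 52.7 and 87.7 FPKM in NC, 395, 131 and 626 in APAP, and 131, 74.1 and 99.6 in AMSC. The beta sum stood at 50.3, 52.4 and 133 FPKM in NC, 627, 139 and 739 in APAP, and 158, 88.2 and 109 in AMSC. In FPKM both sums were higher in every APAP library than in every NC library, while AMSC overlapped with APAP and with NC. Summed over the 4 genes, globin transcripts stood at 101, 105 and 220 FPKM in NC, at 1022, 270 and 1365 FPKM in APAP, and at 289, 162 and 209 FPKM in AMSC. As a share of all reads on genes this was 0.00852% to 0.0191% in NC, 0.0190% to 0.1003% in APAP and 0.0121% to 0.0219% in AMSC. On this scale APAP 2 (0.01899%) lay just below NC 3 (0.01907%), so APAP and NC overlapped. The mean of the sum was 6.23-fold higher in APAP than in NC and 1.55-fold higher in AMSC than in NC, and the AMSC mean was 0.249 times the APAP mean. Without NC 3 the means of APAP and AMSC were 8.58-fold and 2.13-fold higher than that of NC. The APAP libraries differed widely among themselves, with APAP 3 at 5.06 times APAP 2, and the ranges of AMSC and NC and of AMSC and APAP overlapped. The order of the group means was APAP, AMSC, NC for each globin gene, but AMSC and NC overlapped for Hba-a1, Hbb-bs and Hbb-bt. That overlap rested on NC 3, as every AMSC library lay above NC 1 and NC 2 for these 3 genes. In bulk liver, a lower share of red cells and less RNA per red cell cannot be told apart.

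In FPKM, all members but Hbb-bt were higher in every APAP library than in every NC library. Of all 9699 genes tested, 20.9% were. The summed globin of APAP 2 lay above that of NC 3 in FPKM but below it as a share of reads. For the sum this separation thus depended on the scaling. In AMSC against APAP, Hba-a1 and Alas2 were lower in every AMSC library, where 12.4% of all genes were, and the other 3 overlapped. The alpha sum overlapped too, with AMSC 2 at 131.3 and APAP 2 at 130.9 FPKM. Between AMSC and NC the groups of Hba-a2 (higher in AMSC) and Alas2 (lower in AMSC) did not overlap, where 43.5% of all genes did not overlap in either direction. The alpha sum overlapped between AMSC and NC. These comparisons are the ones the genes were chosen on, so nothing is read from the counts.

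As counted, the composition of the globin transcripts changed little beside their amount, though how reads shared within a pair were split is not known. Hba-a1 made up 82.2% to 89.99% of the alpha sum and Hbb-bs 87.6% to 91.1% of the beta sum over the 9 libraries, with overlapping groups in both cases. The beta sum divided by the alpha sum was 0.985, 0.993 and 1.51 in NC, 1.59, 1.06 and 1.18 in APAP, and 1.20, 1.19 and 1.10 in AMSC. It was highest in NC 3 and APAP 1, which belong to different groups. Pearson correlations of log2(FPKM + 1) between globin genes were 0.92 to 0.99 over the 9 libraries, which share a single scaling and, within a pair, reads.

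Alas2 did not follow the globin genes. It stood at 36.1, 29.4 and 33.7 FPKM in NC, at 51.1, 36.4 and 41.7 FPKM in APAP, and at 22.7, 21.0 and 25.0 FPKM in AMSC. In FPKM the 3 groups did not overlap, but APAP 2 lay only just above NC 1. The order of the group means was APAP, NC, AMSC, with 43.0 ± 7.46, 33.1 ± 3.40 and 22.9 ± 1.99 FPKM (SD, n = 3), so that AMSC was below NC for Alas2 and above NC for each globin mean. The log2 differences were 0.36 ± 0.16 (SE) for APAP minus NC, -0.87 ± 0.16 for AMSC minus APAP and -0.51 ± 0.11 for AMSC minus NC. The APAP minus NC difference depended on the scaling: after rescaling each library to the same sum (TPM) it was 0.06, while AMSC minus NC became -0.73. The FPKM of all genes summed to 366767 to 401861 per library in NC and 458808 to 495400 in APAP, so this rescaling moved the median of all genes tested by -0.29 in APAP minus NC, 0.10 in AMSC minus APAP and -0.18 in AMSC minus NC.

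Relative to globin, Alas2 varied over a wide range. For every 100 FPKM of summed globin there were 35.7, 28.0 and 15.3 FPKM of Alas2 in NC, 4.9995, 13.5 and 3.05 in APAP, and 7.84, 12.9 and 12.0 in AMSC. The ratio was lowest in APAP 3 and APAP 1 and highest in NC 1. Over all libraries globin spanned a 13.5-fold range and Alas2 a 2.43-fold range. The correlations of Alas2 with the globin genes over the 9 libraries were 0.45 to 0.61.

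**Figure D2:**
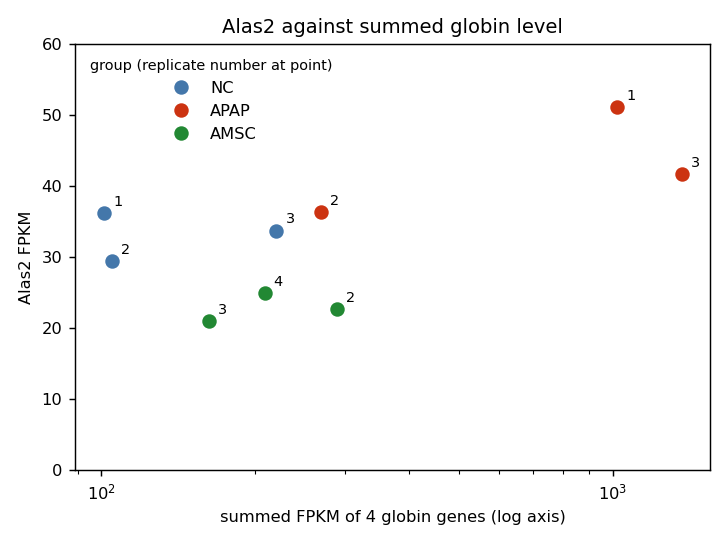
Alas2 FPKM against the summed FPKM of the 4 globin genes (log axis) in the 9 libraries, coloured by group and numbered by replicate. The AMSC libraries lie between 21.0 and 25.0 FPKM of Alas2, below NC 1 and NC 2, which had less globin, and the pair APAP 1 and APAP 3 lies far to the right at 51.1 and 41.7 FPKM.

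Embryonic and other globins were near the limit of detection. Hbb-y, Hbb-bh0, Hbb-bh1, Hbb-bh2 and Hbb-bh3, other beta-like globin genes, had 0 reads in all 9 libraries, which allows up to 3 reads each. Hba-x had 1 read in all. Only Cygb, a globin of stellate cells and fibroblasts, reached the minimum of 1 FPKM for testing, at 1.95 to 4.75 FPKM, and was no DEG in any comparison. A gene was called a DEG where its adjusted p was 0.05 or less (limma, Benjamini-Hochberg over all 9699 genes tested) and its log2 difference was 1 or more in size.

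The label of the 5 genes as a sign of blood was checked against other red cell genes, and Slc4a1 and Gata1 were near 0 even where globin was highest. Slc4a1 (the band 3 anion exchanger of the red cell membrane) had 16 reads in all 9 libraries together and Gata1 (the erythroid transcription factor) had 3. APAP 3, with 14203 globin reads, had 0 reads on Slc4a1 and 2 on Gata1. Klf1, the factor that drives adult beta globin, stood at 1.66 to 3.33 FPKM with overlapping groups (log2 difference of APAP minus NC -0.07, adjusted p = 0.749, limma).

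Of 27 genes of the red cell membrane and cytosol, 11 were abundant enough to be tested. Over all 9699 genes tested, 7.9% were DEGs in APAP against NC (5.09% higher, 2.8% lower), 1.96% in AMSC against APAP (0.742% higher, 1.22% lower) and 6.01% in AMSC against NC (3.92% higher, 2.09% lower). Of the 11 genes only Slc2a1, a glucose transporter of red cells and many other cells, was a DEG. It rose by 2.05 ± 0.36 (SE) in APAP against NC (adjusted p = 0.00608, limma) and by 1.15 ± 0.18 in AMSC against NC (adjusted p = 0.00311), and was highest in APAP 2, where globin was lowest of the group. Without a minimum level for testing the first call was lost (adjusted p = 0.0584), and without NC 3 the second (log2 difference 0.96). Smaller changes also had a low adjusted p (limma) in APAP against NC. Gypc (-0.99, adjusted p = 0.00918), Blvrb (-0.65, adjusted p = 0.0130) and Car2 (-0.60, adjusted p = 0.0132) fell, and Tspan33 rose (0.51, adjusted p = 0.0307). For each of them the adjusted p exceeded 0.05 in some recomputed fit. The median log2 difference over the 11 genes was -0.04 in APAP minus NC, -0.11 in AMSC minus APAP and -0.03 in AMSC minus NC, beside 0.00, 0.01 and 0.02 over all genes tested.

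Of 28 genes of erythroid maturation and transcription, 15 were tested. Tent5c, a poly(A) polymerase of erythroid and plasma cells, rose by 1.57 ± 0.16 in APAP against NC (adjusted p = 0.00065, limma) and fell by 1.25 ± 0.15 in AMSC against APAP (adjusted p = 0.00812). It stood at 5.15, 5.86 and 5.02 FPKM in APAP, with APAP 2 highest. Without a minimum level for testing the fall was not called (adjusted p = 0.0818). Tfrc, the transferrin receptor that brings iron to erythroblasts and other cells, fell by 1.11 ± 0.20 in AMSC against APAP (adjusted p = 0.0309) and lost that call without a minimum level for testing and when any one of APAP 1, APAP 2, AMSC 3 or AMSC 4 was left out. The other 13 genes were no DEGs in any comparison, and the median over the 15 was 0.14, -0.10 and 0.04. 

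Heme synthesis genes were nearly all measured, 19 of 20 being tested besides Alas2, and 3 were DEGs in APAP against NC. Alas1, the housekeeping counterpart of Alas2 and the main form in liver, stood at 222, 198 and 196 FPKM in NC, at 34.2, 51.0 and 50.9 FPKM in APAP, and at 144, 247 and 138 FPKM in AMSC. It fell by 2.17 ± 0.18 on the log2 scale in APAP against NC (adjusted p = 0.000251, limma) and rose by 1.91 ± 0.26 in AMSC against APAP (adjusted p = 0.0113), while AMSC minus NC was -0.27 (adjusted p = 0.396). The rise in AMSC against APAP was no longer called without a minimum level for testing (adjusted p = 0.113). Alas2 thus stood at 0.148 to 0.173 times the Alas1 level in NC, at 0.713 to 1.49 times in APAP and at 0.0849 to 0.182 times in AMSC, and APAP 1 was the one library with more Alas2 than Alas1 per length.

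Cpox, which makes protoporphyrinogen, fell by 1.27 ± 0.24 in APAP against NC (adjusted p = 0.00865, limma), a call that was lost without a minimum level (adjusted p = 0.063). Clpx, the mitochondrial unfoldase that activates Alas2 and turns over Alas1, rose by 1.46 ± 0.18 in APAP against NC (adjusted p = 0.00164) and by 1.34 ± 0.13 in AMSC against NC (adjusted p = 0.000288). Abcb10, a mitochondrial transporter needed for hemoglobinization, fell by 1.23 ± 0.15 in AMSC against NC (adjusted p = 0.00103). Fech, which inserts the iron, had log2 differences of -0.23, 0.12 and -0.11 in the 3 comparisons and was no DEG. The median over the 19 genes was -0.21 in APAP minus NC, 0.03 in AMSC minus APAP and -0.10 in AMSC minus NC.

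**Figure D3:**
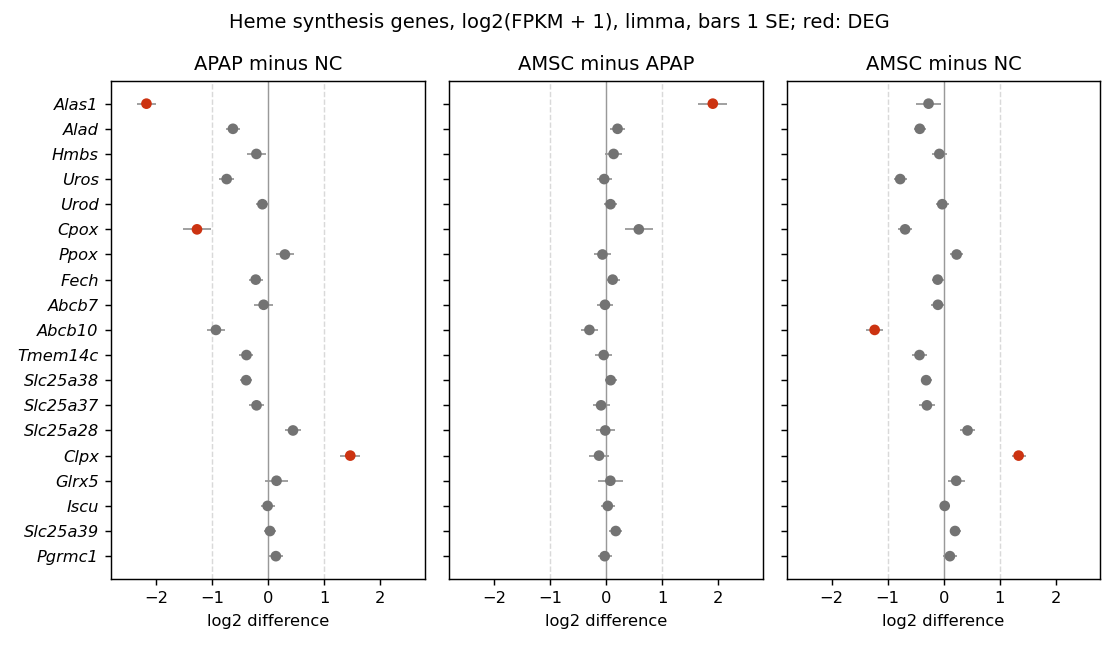
Log2 differences of log2(FPKM + 1) with SE bars for the 19 heme synthesis genes tested besides Alas2, in each of the 3 comparisons; red points are DEGs and dashed lines mark a log2 difference of 1 in either direction. Alas1 lies at -2.17 in APAP minus NC and at 1.91 in AMSC minus APAP, while Clpx lies at 1.46 in APAP minus NC and 1.34 in AMSC minus NC.

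Among 15 tested genes of hemoglobin and heme clearance, Hmox1 had the largest difference. It stood at 4.55, 4.56 and 9.92 FPKM in NC, at 556, 1115 and 834 FPKM in APAP, and at 795, 345 and 1003 FPKM in AMSC. It rose by 6.85 ± 0.33 in APAP against NC (adjusted p = 3.09e-05, limma) and by 6.55 ± 0.41 in AMSC against NC (adjusted p = 3.39e-05). Within APAP, the library with the most Hmox1 (APAP 2) had the least globin. In NC the library with the most Hmox1 (NC 3) had the most globin, and in AMSC the library with the least Hmox1 (AMSC 3) had the least globin. A link between Hmox1 and globin was not tested. Hp rose by 1.06 ± 0.22 in AMSC against APAP (adjusted p = 0.0456) and by 1.08 ± 0.22 in AMSC against NC (adjusted p = 0.0102). The former call was lost whenever any one of the 6 libraries was left out, and the latter without NC 2 or AMSC 3, after rescaling to TPM, with quantile normalization and without a minimum level for testing. Hpx (0.64 in APAP minus NC) and Cd163, the receptor for hemoglobin bound to haptoglobin (0.65 in APAP minus NC), were no DEGs.

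Other cell types that blood or sinusoids bring to a liver sample differed between groups in part like globin. The summed level of 18 platelet genes was 2.57 to 4.16 FPKM in NC, 39.6, 45.2 and 50.3 FPKM in APAP 1, 2 and 3, and 7.02 to 7.39 FPKM in AMSC. Of the 18 platelet genes 8 were tested, and 6 of these rose in APAP against NC, among them Thbs1 (3.18 ± 0.21), Nrgn (2.77 ± 0.15), Pf4 (2.65 ± 0.19) and Ppbp (2.61 ± 0.12). In AMSC against APAP 5 fell, among them Thbs1 (-2.77 ± 0.22) and Nrgn (-2.47 ± 0.14). As the NC sum was low, most of the 8 reached the minimum for testing through their APAP level. The filter thus favoured genes high in APAP, and nothing is read from these numbers. Unlike globin, the platelet sum in APAP 2 was as high as in the other APAP libraries. The 18 neutrophil genes summed to 0.491 to 2.09 FPKM in NC, to 38.4, 9.67 and 19.4 FPKM in APAP and to 5.30 to 6.91 FPKM in AMSC. Only 3 were abundant enough to be tested. Of these, S100a8, S100a9 and Retnlg rose in APAP against NC, and S100a9 and Retnlg also rose in AMSC against NC. With so little in NC, these genes reached the minimum for testing through the groups where they were high. Nothing is therefore read from their number. The call of S100a8 was lost without a minimum level for testing (adjusted p = 0.0976, limma), and that of Retnlg in AMSC against NC with quantile normalization.

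Kupffer cell and macrophage genes summed to 127, 124 and 230 FPKM in NC, to 313, 175 and 427 FPKM in APAP and to 174, 122 and 111 FPKM in AMSC, and NC 3, APAP 3 and AMSC 2 were the highest of their groups, as for globin. Divided by Clec4f, a lectin of Kupffer cells, the globin sum was 5.46 to 6.07 in NC, 11.2 to 31.3 in APAP and 10.97 to 12.2 in AMSC, so that NC 3 was close to the other NC libraries on this scale. Of 13 Kupffer cell and macrophage genes tested, Cd68 (1.38 ± 0.21) and Timd4 (1.02 ± 0.32) rose in APAP against NC and Cd68 fell in AMSC against APAP (-1.24 ± 0.21). The call of Timd4 was lost after rescaling to TPM, with quantile normalization, without the trend in limma, without a minimum level for testing and without NC 1, NC 2, APAP 1 or APAP 3. The fall of Cd68 was not called without a minimum level for testing or without APAP 3, AMSC 2 or AMSC 4. Sinusoidal endothelial genes summed to 30.7, 38.6 and 69.3 FPKM in NC, to 98.9, 32.9 and 53.5 in APAP and to 31.9 to 33.7 in AMSC, and none of the 10 tested was a DEG. B cell genes summed to 23.8 to 52.9 FPKM in NC, 57.7 to 113 in APAP and 30.2 to 48.9 in AMSC, and of the 3 tested Cd74 rose in APAP against NC (1.33 ± 0.33), a call lost without a minimum level for testing and without NC 1, NC 2 or APAP 3. T and NK cell genes, of which none reached the minimum for testing, summed to 1.52 to 3.33, 3.16 to 6.35 and 1.86 to 4.28 FPKM. Hepatocyte genes summed to 54256 to 59199 FPKM in NC, 73212 to 86750 in APAP and 71975 to 72398 in AMSC. The FPKM of all genes also summed higher in APAP than in NC. Over the 11 hepatocyte genes tested the median log2 difference was 0.42 in APAP minus NC. None of the 11 was a DEG in that comparison, but 6 met its limit on adjusted p (limma) with a log2 difference below 1 in size. Hamp rose in AMSC against APAP (1.61 ± 0.30). That call held in only 1 of the 6 fits that left out a library (without APAP 3). It was also lost with quantile normalization and without a minimum level for testing. Fga and Fgb rose in AMSC against NC (1.58 ± 0.16 and 1.60 ± 0.15). The part of these cell types in the globin levels was not tested.

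**Figure D4:**
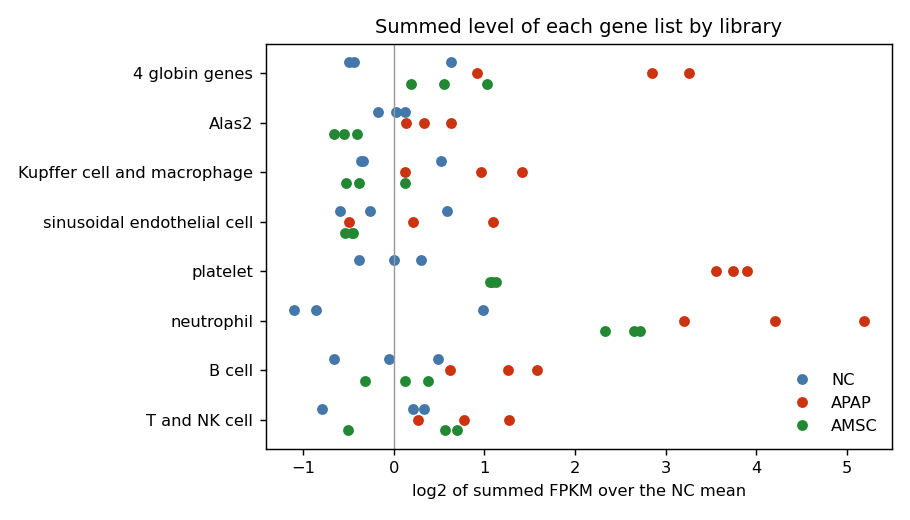
Log2 of the summed FPKM of each gene list over its NC mean, 1 point per library, coloured by group. Globin spreads widely within APAP, whereas the 3 APAP points of the platelet list lie close together. Those of Alas2 lie above the NC mean, at 0.14 to 0.63.

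Among the 9694 other genes tested, those whose log2(FPKM + 1) was most like the mean of the 5 members over the 9 libraries were Cd53 (Pearson r = 0.99), Slc15a3 (0.98), Slc11a1 (0.97), Srgn (0.97), H2-DMa (0.97), Rgs2 (0.97), Plac8 (0.97), Serpinb6a (0.96), Erlec1 (0.95) and Pkm (0.95). Cd53, a tetraspanin of leukocytes, stood at 1.58, 1.56 and 2.40 FPKM in NC, at 5.56, 2.64 and 6.15 FPKM in APAP, and at 3.18, 1.72 and 2.06 FPKM in AMSC. Its highest library within each group was thus NC 3, APAP 3 and AMSC 2, which were also the highest for Hbb-bs. This follows from its choice by correlation over the same libraries and is no separate result. The mean of the 5 members mostly reflects the globin genes, as Alas2 varied less.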

How the data were processed

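RNA was extracted with a column kit and libraries were made with a SMARTER mRNA-seq kit, per the labels. The table deposited by the authors held FPKM values, coordinates and lengths of 54532 genes. The submitters' processing notes name GRCm38/mm10; the aligner and counting program are not given in the sources used here. Whole reads were recovered from FPKM and gene length (100% of values within 0.1 of a whole number); a read on a gene of 1 kilobase was worth 0.0578 to 0.0807 FPKM. Samples were grouped by the labels' treatment. The members and gene lists were chosen with earlier results of these data known. The 9699 genes whose mean over the libraries reached 1 FPKM were tested with limma 3.58.1 (R 4.3.3, trend) on log2(FPKM + 1), 2 groups per fit, with Benjamini-Hochberg adjustment. Log2 differences understate the change of low genes. The libraries are biological replicates by the study's methods.

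Tests covered 12 gene lists (105 genes tested of 207 in the table). Named were all 5 members, up to 4 DEGs per list and comparison (the 3 most abundant genes where a list had none), the 10 genes most like the members, and a fixed set of red cell genes, of which the text gives those that its comparisons turn on. On simulated data with 200 genes changed by 2 on the log2 scale, 94.5%, 94.0% and 97.5% were recovered in APAP against NC, AMSC against APAP and AMSC against NC (9699 genes each). Same-numbered libraries deviated together in APAP against NC (correlations of deviations from the group means 0.213, 0.160 and 0.378 for replicates 1, 2 and 3). A pairing by number is thus possible for those samples, but the reported fits did not use it. It entered only the recomputation with the replicate block. No label gives a shared batch, and the title of NC 3 has the number 1 and another date, which goes against the third pair. In AMSC against APAP the correlations were -0.104 and -0.293 and in AMSC against NC -0.199 and -0.309, over 2 shared numbers, so these samples share only a number. The results were recomputed with a pseudocount of 0.1, with every gene above 0 tested, with a mean of 5 FPKM or more, after rescaling to TPM, with quantile normalization, with the 9 libraries fitted jointly, with the replicate block, no trend, voom on the recovered reads, no minimum fold change and leaving out each library. Transcripts were taken from GENCODE vM21 and promoters from RefSeq (GRCm38.p6), and all 5 members matched; of 54409 gene identifiers shared with GENCODE, 98.33% had the same start and end. Red cell gene Ahsp was not analysed here, and some genes of the lists are not reported here. Figures were drawn with matplotlib 3.10.9.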

Additional observations from a re-analysis of the deposited data

How the results depend on the processing

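The number of DEGs among the list genes was 18 in APAP against NC (16 higher, 2 lower), 11 in AMSC against APAP (3 higher, 8 lower) and 9 in AMSC against NC (8 higher, 1 lower). These numbers include platelet and neutrophil genes that reached the minimum for testing through the groups where they were high. With a mean of at least 5 FPKM it was 7 in APAP against NC and 5 in AMSC against APAP, where fewer genes were tested, and with no minimum fold change it was 37 in APAP against NC and 32 in AMSC against NC. With all genes above 0 it was 4 in AMSC against APAP. Of the 38 calls of single list genes, 13 were lost with all genes above 0, 4 with quantile normalization, 2 after rescaling to TPM, 1 without the trend and 0 with voom on the recovered reads. After rescaling to TPM the number of DEGs was 14 in AMSC against NC (9 higher, 5 lower), and in APAP against NC the split was 16 higher and 7 lower. Leaving out a library gave 16 to 25 in APAP against NC, 7 (without AMSC 4) to 20 (without APAP 2) in AMSC against APAP and 8 to 9 in AMSC against NC. With the replicate number as a block it was 20, 14 and 9, and no call of a named gene was lost to the block. After rescaling to TPM the log2 difference of Alas2 was 0.0576 in APAP against NC and -0.73 in AMSC against NC. The cause of these changes was not tested beyond the number of genes. With 3 libraries per group and APAP libraries that differed by 5.06 times in summed globin, an interval for a globin difference is wide at any depth, and depth limits only genes with few reads, such as Slc4a1. Intervals of counts would cover counting error only.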
